A study of Prunus persica with 2 samples.

Results

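The miRNAs miR397, miR398 and miR408, which are tied to copper in plants, and the laccase transcripts listed with a miR397 cleavage site were examined in fruit of 'Troubador', a yellow-fleshed peach (*Prunus persica*) cultivar. Members were taken by name: 3 rows of the 886 arms in the miRNA list (557 known and 329 predicted), and all rows of the degradome list that hold any of these miRNAs or the transcripts ppa003646m, ppa003296m, ppa022440m and ppa003319m. That gave 4 of 469 listed pairs of a miRNA and a transcript, and 4 of the 379 transcripts in the list. The study made 1 small RNA library and 1 degradome library from fruit of field-grown trees sampled after full bloom at day 35, day 55, day 75, day 90 and day 105, and the stages were pooled before the small RNA library was sequenced. The sources do not say whether the stone was part of the fruit that was extracted. Neither library has a replicate, so no test was made between samples or stages, and the 95% intervals given are exact and cover counting error alone: the reads were amplified with no molecular identifiers, so 1 read need not be 1 molecule.

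Laccases are secreted copper enzymes that oxidise monolignols, the building blocks of lignin, and peach fruit lays down lignin when its stone hardens. In Arabidopsis, miR397 is known for cutting laccase transcripts, miR398 for cutting those of copper/zinc superoxide dismutases and of their copper chaperone, and miR408 for cutting those of plantacyanin and some laccases. All of them rise in Arabidopsis when copper is short, which spares copper for plastocyanin in the chloroplast. A degradome library captures the 3′ fragments that such cutting leaves behind, and a slicing miRNA cuts its target opposite its own bases 10 and 11.

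The miRNAs are shown to tell which arm was counted, with the seed (bases 2 to 8) in capitals. Each was 21 nt long, and none of the other listed arms had the seed or the whole sequence of any of them.
miR397: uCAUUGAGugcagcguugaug
miR398: uGUGUUCUcaggucgccccug
miR408: aCAGGGAAcagguagagcaug

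The sequence listed as miR397 matched its closest homolog, ath-miR397a of Arabidopsis, with 0 differences, and that of miR398 matched osa-miR398b of rice with 0 differences. The miR408 row was named after mtr-miR408* of Medicago, a star arm, and differed from it by 2 bases, U11G and C13U (the Medicago base first, positions counted from 1 at the 5′ end). The count given here for miR408 therefore belongs to the star arm, not to the arm known for cutting plantacyanin transcripts. The GC content was 47.6% in miR397, 61.9% in miR398 and 52.4% in miR408.

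The 3 miRNAs were sequenced at low to moderate frequency and together took 306 of the 2308209 listed reads. miR408 had 270 reads, with a counting interval of 239 to 304, or 0.0117% of the listed reads (0.0103 to 0.0132%). miR397 had 33 reads (22.7 to 46.3), or 0.00143% (0.000984 to 0.00201%). miR398 had 3 reads (0.619 to 8.77), or 0.000130% (2.68e-05 to 0.000380%). The intervals of the 3 counts did not overlap. miR408 had 8.18 times as many reads as miR397 (5.69 to 12.1) and 90 times as many as miR398 (30.5 to 439), while miR397 had 11 times as many as miR398 (3.45 to 56.1).

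**Figure D1:**
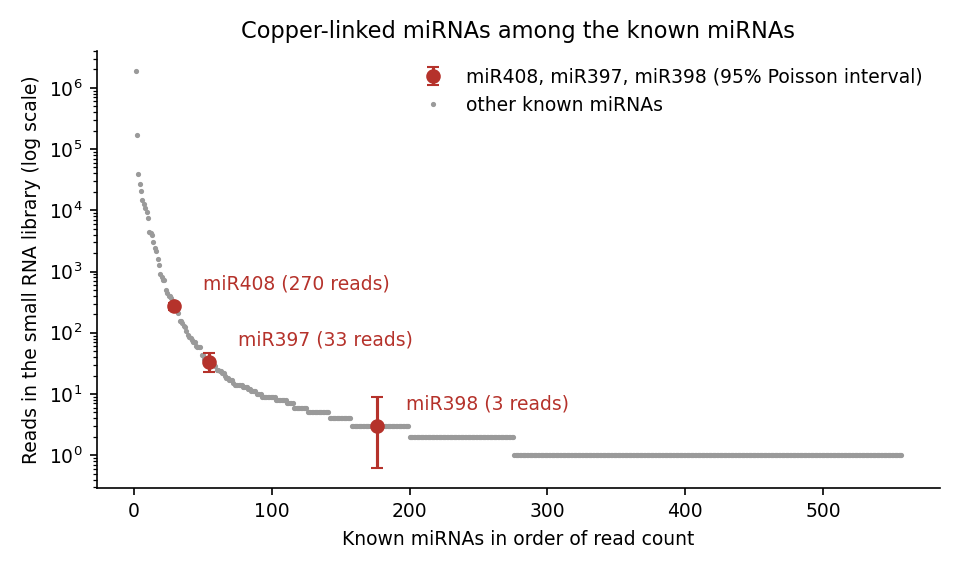
Reads of each of the 557 known miRNAs on a log scale, in order of read count, with miR408, miR397 and miR398 in red with their exact Poisson 95% intervals and the other known miRNAs in grey. miR408 (270 reads) and miR397 (33 reads) stand on the steep left side of the curve, while miR398 (3 reads) stands on the step of miRNAs with equal counts.

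Within the order of the 557 known miRNAs, whose median was 1 read and whose highest count was 1910151 reads for miR156, miR408 was at rank 29, miR397 at rank 54 and miR398 at rank 158, where it was tied with 41 others. The miRNAs just above miR408 were miR472 and miR162 (403 reads each), miR172 (373 reads), known for AP2-like targets, and miR1511 (325 reads), and those just below were miR827 (269 reads), miR5244 (247 reads) and miR1886 (213 reads). The counting interval of miR408 overlapped those of 4 other known miRNAs, which had 213 to 325 reads, so its place in the order was settled to within a few ranks. Above miR397 stood miR394 (37 reads), known for an F-box target, miR165 (35 reads), known for HD-ZIP targets, and miR5271 (34 reads), and below it stood miR1509 (32 reads), miR5210 (32 reads) and miR845 (31 reads). The interval of miR397 overlapped those of 33 others with 14 to 60 reads, so its rank is loose. Next to the tied group of miR398 stood miRNAs with 4 reads, such as miR812, miR846 and miR897, and with 2 reads, such as miR1053, miR1088 and miR1091. For miR398 the interval overlapped those of 485 others with 1 to 15 reads, and at this depth it could not be told from most of the list.

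Among the 34 families that the study listed as conserved, whose median was 388 reads and lowest count 1 read, miR408 was at rank 19, miR397 at rank 28 and miR398 at rank 31. All 3 members thus had fewer reads than the median conserved family. Rows named after other miRNAs known to act on laccases or other copper proteins were as rare as miR398. Their sequences were not compared with those of the miRNAs they are named after, so their counts may not belong to these. miR857, which is known in Arabidopsis for a laccase target, had 3 reads of a 23 nt sequence, and miR528, known in grasses for copper protein targets, had 3 reads of an 18 nt sequence, while miR1444, known in poplar for polyphenol oxidases, had no row.

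A predicted miRNA related to miR397 in sequence was found by comparing each member with every other listed arm; it was chosen after its values were seen. The 5p arm of TBD-623-m0143 differed from miR397 by 3 edits, where the next listed arm differed by 7 and the median arm by 12. Its 3p arm was complementary to miR397 over a run of 19 nt, where the next longest run was 7 nt and the median 4 nt. The capitals mark the differing bases in the 5p arm, the run complementary to bases 1 to 19 of miR397 in the 3p arm, and both arms in the hairpin.
TBD-623-m0143-5p: uAauugGgugcagcgCugaug
TBD-623-m0143-3p: UCAACGCUGCACUCAAUGAug
TBD-623-m0143 hairpin: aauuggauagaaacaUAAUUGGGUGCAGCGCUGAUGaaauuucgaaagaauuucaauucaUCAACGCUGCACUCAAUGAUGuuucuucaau

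Written with the miRNA's base first and counted from its 5′ end, the changes from miR397 to the 5p arm were C2A, A7G and U16C, and C2A and A7G lie in the seed. The 91 nt hairpin was placed on scaffold 4 from 1619238 to 1619328, on the minus strand, in a genome release that the sources used here do not name. The 3p arm had 13 reads (6.92 to 22.2) and the 5p arm 4 reads (1.09 to 10.2), a ratio of 3.25 with an interval of 1.00 to 13.7, so the arm that resembles miR397 was the rarer one by count, with a lower bound barely above equality. In the degradome list the 5p arm was paired with ppa000296m, at nucleotide 1159 with 1 read (alignment score 4, category 4, the authors' p = 0.248), and the 3p arm had no row. No listed arm came close to the other members: the nearest differed from miR398 by 8 edits and from miR408 by 7, and the longest complementary run was 8 nt for miR398 and 7 nt for miR408.

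Cleavage sites were listed for miR397 alone among the 3 members, and all 4 of its sites were on laccase transcripts. miR398 and miR408 were among the 12 of the 34 conserved families with no listed pair, while 22 had at least 1. A missing row says only that no site passed the caller's filters, and whether the count of the miRNA plays a part was not tested. For miR408 the listed sequence is the star arm, so its missing row says nothing of the arm known for cutting plantacyanin transcripts. None of the transcripts that the study's annotation of predicted targets describes, in the incomplete copy used here, was named as a plantacyanin, a superoxide dismutase or another copper protein apart from the laccases. Of the rows named after other copper-linked miRNAs, whose sequences were not checked, miR857 had no pair and miR528 had 4. These were on ppa024610m, ppa004143m, ppa001765m and ppa004080m, each with 1 or 2 reads and an alignment score of 4, and the authors' p was 0.999 or 1.00.

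The transcript ppa003646m is annotated as IRX12, the Arabidopsis laccase also called LAC4, which acts in the lignification of xylem, and lies on scaffold 6 from 23866823 to 23869576. It had 3942 raw reads (3820 to 4067) at nucleotide 679 of the transcript, more than any other of the 393 distinct sites in the list. The aligned stretch ran from nucleotide 668 to 688, with an alignment score of 1.5 on a scale where 0 is full pairing and 4 was the highest value listed. Its category was 0, the caller's class for a position that holds more reads than any other of its transcript, and the authors' p was 0.00784.

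The transcript ppa003296m is annotated as LAC2 and lies on the same scaffold from 4899351 to 4901808. It had 592 reads (545 to 642) at nucleotide 716 (aligned stretch 705 to 725), the site with the next highest number of reads in the whole list. Its alignment was poorer, with a score of 3, yet its category was also 0, with the authors' p = 0.0147.

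A further transcript annotated as IRX12, ppa022440m (scaffold 6, 365076 to 368523), had 124 reads (103 to 148) at nucleotide 683 (aligned stretch 672 to 692) and was at rank 9 of the 393 sites. Its score of 1.5, category 0 and the authors' p = 0.00784 were the same as for ppa003646m.

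The transcript ppa003319m is annotated as LAC17, which in Arabidopsis acts together with LAC4 in stem lignin, and lies on scaffold 6 from 23135093 to 23137469. It had 55 reads (41.4 to 71.6) at nucleotide 704 (aligned stretch 693 to 713) and was at rank 17. The alignment was the poorest of the 4, with a score of 3.5. It was the single laccase outside category 0: category 2 means that the site lay above the median of the covered positions but was not the highest, so this transcript had at least 1 other position with more reads. The authors' p was 0.198.

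**Figure D2:**
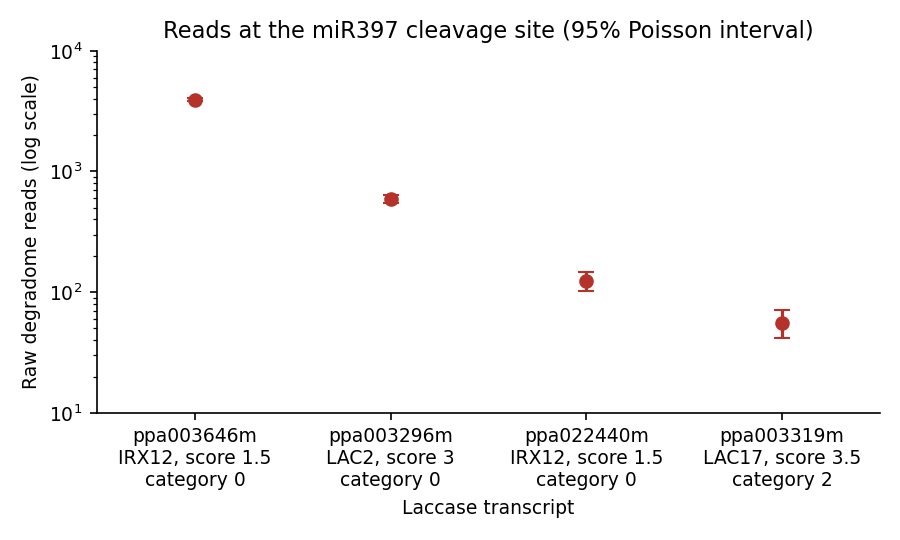
Raw degradome reads at the miR397 site of each laccase transcript on a log scale, with exact Poisson 95% intervals, and the annotated laccase, alignment score and category under each transcript. The 4 values, 3942, 592, 124 and 55 reads, stand apart beyond their intervals, and the 2 transcripts annotated as IRX12 with the same score of 1.5 are in the first and the third place.

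The reads were spread very unevenly over the paralogs. Of the 4713 reads on the 4 laccase sites, ppa003646m took 83.6% (82.6 to 84.7%), ppa003296m 12.6% (11.6 to 13.5%), ppa022440m 2.63% (2.19 to 3.13%) and ppa003319m 1.17% (0.880 to 1.52%). ppa003646m had 6.66 times as many reads as ppa003296m (6.11 to 7.27), 31.8 times as many as ppa022440m (26.6 to 38.3) and 71.7 times as many as ppa003319m (54.9 to 95.3). ppa003296m had 4.77 times as many as ppa022440m (3.93 to 5.84) and 10.8 times as many as ppa003319m (8.16 to 14.5), and ppa022440m had 2.25 times as many as ppa003319m (1.63 to 3.16). None of the 6 ratios had an interval that reached 1, so the order of the 4 sites was clear of counting error in this library. Transcript levels were not measured in these files, so a more abundant transcript and one cut more often cannot be told apart.

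The order of the reads was not the order of the pairing. Both transcripts annotated as IRX12 had the score of 1.5, but between them stood ppa003296m with the poorer score of 3. Compared with other sites of the same score, each laccase site had many reads: at a score of 1.5 the other 3 sites had a median of 9 reads and at most 52, at a score of 3 the other 48 sites had a median of 2 and at most 112, and at a score of 3.5 the other 74 sites had a median of 1 and at most 47. Every laccase site had more reads than the highest site of its own score on any other transcript of the list outside the laccases. The p-value does not carry this beyond the category, which itself depends on the reads of the transcript. In all 306 combinations of miRNA, score and category in the list it took a single value, though for a combination with 1 pair this is fixed. Both transcripts annotated as IRX12, with 3942 and 124 reads and the same score and category, had the same p-value.

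Of the 4 laccase pairs, 3 had the authors' p under 0.05, against 18.6% of the 469 listed pairs, and 2 had it under 0.01, against 7.68%. Category 0 held 3 of the 4, against 14.5% of all pairs. With 4 pairs of 1 miRNA, these shares describe the list and no test was made. All 4 alignments spanned 21 nt, the full length of miR397, and in all 4 the site was opposite base 10 of the miRNA. That position is the one the caller looks for, and 412 of the 458 pairs whose position could be read had it, so it is a property of the list more than of the laccases. For each laccase site the authors' normalized reads equalled the raw reads, as for 369 of the 469 pairs (78.7%), and no laccase transcript had a row with another miRNA.

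The sites also lay at nearly the same place in each transcript, from nucleotide 679 to 716, a span of 37 nt. Among the 22 known miRNAs with at least 4 listed transcripts this was the narrowest span, ahead of 50 nt for miR165 and miR166, against a median of 806.5 nt. A span can only widen as transcripts are added, and miR397 had the fewest allowed, while others had up to 26. The contrast with the median is therefore not between like numbers of transcripts. miR5213 spanned 72 nt over 10 transcripts. Over the whole list, sites lay between nucleotides 11 and 7788 with a median of 565. The laccases are paralogs and share sequence, so their sites are not independent of each other.

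**Figure D3:**
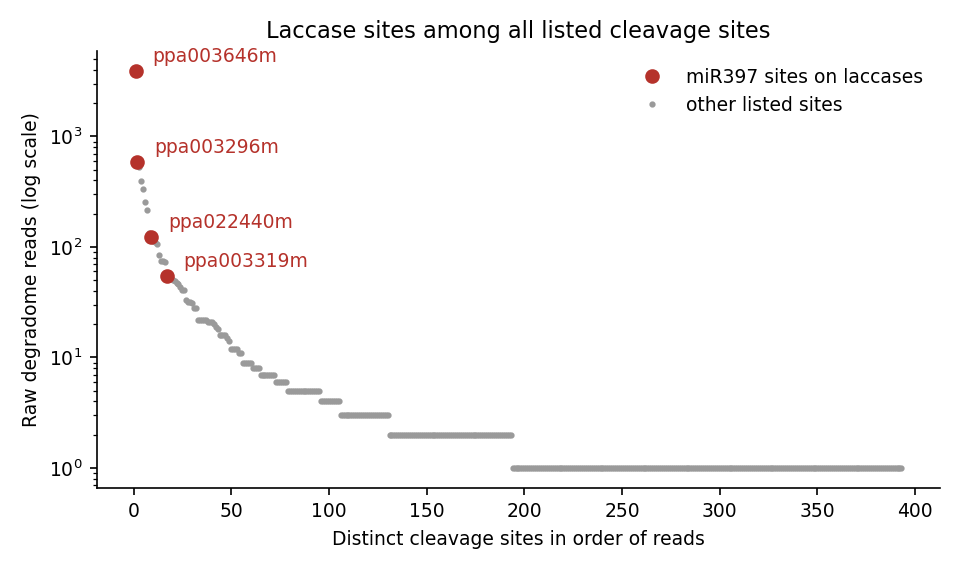
Raw reads at each of the 393 distinct cleavage sites on a log scale, in order of reads, with the miR397 sites on the 4 laccases in red and the other sites in grey. ppa003646m stands above every other site and ppa003296m next to it, while ppa022440m and ppa003319m lie on the upper part of the slope, above the 200 sites with 1 read.

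Set against the whole list, the 4 laccase sites held 52.9% (51.9 to 54.0%) of the 8901 reads over the 393 distinct sites, and ppa003646m alone held 44.3%. The other 389 sites shared 4188 reads. The median site had 1 read, 200 sites had exactly 1, and 12 had over 100, of which 3 were laccase sites. The other sites among the 10 with the most reads were those of miR827 on ppa004388m (525 reads), miR393 on ppa003344m (394), miR1509 on ppa020475m (334), miR395 on ppa005353m (254), miR396 on ppa022685m (216) and ppa021277m (113), and TBD-623-m0091-5p on ppa002082m (133). miR393 is known for auxin receptor targets, miR395 for sulfate assimilation and miR396 for growth-regulating factors.

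The low count of miR397 and the high counts at its sites were set beside each other by dividing the site reads of each known miRNA by its own reads. The libraries share no depth, so the size of this ratio carries no meaning and only its order over miRNAs is read. The paper describes equal mixing of RNA from the stages for the small RNA library alone. If the degradome RNA held another mix of stages, the order could differ as well. With 4713 site reads over 33 miRNA reads, miR397 had 142.8 site reads per miRNA read (102 to 208), the highest of the 114 known miRNAs with a listed site, whose median was 1. The next were miR5373 (66), miR838 (43), miR414 (33) and miR4993 (27), but 3 of these had a miRNA count of 1 read and miR414 had 2, so their intervals are very wide; that of miR5373 ran from 11.4 to 2646 and overlapped that of miR397. Among the 42 with at least 5 reads, whose median was 0.106, the next after miR397 were miR395 at 15.1 (9.22 to 26.3) and miR1509 at 10.4 (7.25 to 15.5), both with intervals below that of miR397.

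miRNAs close to miR397 in the order of counts had far fewer site reads. miR165, with 35 reads, had 80 site reads, a ratio of 2.29, and miR1509, with 32 reads, had 334. The sites of miR165 were 4, from nucleotide 565 to 615. The far more abundant miR166, with 39453 reads, had as many site reads on as many sites between the same nucleotides, a ratio of 0.00203. Which of them made these cuts cannot be told from these lists, so the ratio of miR165 need not be its own. At the other end of the order, miR156, with 1910151 reads, had 113 site reads, a ratio of 5.92e-05, and miR396, with 10991 reads, had 555, a ratio of 0.0505. Of the other known miRNAs with a site, 87 had a lower count than miR397 and 26 a higher one. When ppa003646m was left out, as an alternative chosen after seeing the data, the ratio of miR397 was 23.4 and its rank was 5 of 114. Among the 42 with at least 5 reads it was then followed by miR395 at 15.1. No interval was computed for the lowered ratio, so whether these 2 differ beyond counting error was not tested. Only miR397 lost its highest site here, while miR395 kept its own, with 254 of its 256 site reads.

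**Figure D4:**
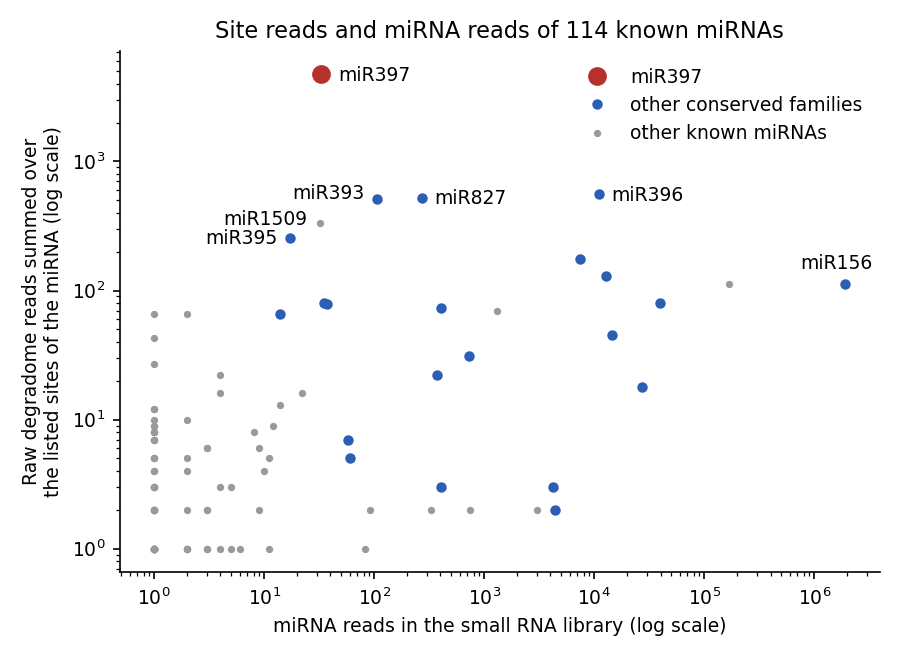
Raw degradome reads summed over the listed sites of each of the 114 known miRNAs with a site, against its reads in the small RNA library, both on log scales, with miR397 in red, the other conserved families in blue and the remaining known miRNAs in grey. miR397 (33 miRNA reads and 4713 site reads) stands above all others, and miR156 (1910151 miRNA reads and 113 site reads) lies at the far right.

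The cleaved laccases are some of a larger group. In the copy of the study's annotation used here, which describes 208 transcripts and is not complete, 15 were named as laccases. The annotation covers predicted targets of known miRNAs only, so each laccase in it is a predicted target by the way the list was made. Of these, 4 had a degradome row (26.7%) and 11 had none, against 55 of the other 193 described transcripts with a row (28.5%). No test of these shares was made. Both transcripts annotated as IRX12 and the single one annotated as LAC2 had a row, as did 1 of 4 annotated as LAC17, whereas none of the 5 annotated as LAC11 and none of those annotated as LAC1, LAC3 or LAC7 (1 each) had one. LAC11 acts with LAC4 and LAC17 in the lignification of Arabidopsis stems.

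By position, 10 of the 15 laccases were on scaffold 6, among them all 4 with a row, and the other 5 were on scaffolds 5, 7 and 8. The nearest annotated laccase to ppa003319m was ppa003308m, also annotated as LAC17, which began 9496 nt further on and had no row. The other pair of LAC17 transcripts on this scaffold, ppa003714m and ppa017421m, lay 2812 nt apart, and neither had a row. The remaining laccases of scaffold 6 without a row were ppa003408m (LAC3), ppa003572m (LAC11) and ppa003587m (LAC7). Outside it were ppa019880m (LAC1, scaffold 5), ppa003577m (LAC11, scaffold 7), and ppa017222m, ppa015544m and ppa003590m (all LAC11, scaffold 8). As for the hairpin, the release of the genome behind these places is unnamed. Whether the transcripts with no row were present in the fruit cannot be told from these lists.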

How the data were processed

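Both lists came from 1 library each. In the deposited small RNA list the values are raw read counts. The authors had removed low-quality, adaptor, short and poly(A) reads and reads from other RNA classes, then named known miRNAs by alignment to miRBase plant entries and predicted others with MIREAP from reads left unannotated. In the deposited degradome list the raw reads are counts at a cleavage site, and the normalized reads are a signal of the authors that never exceeds the raw reads. Each pair also carries a p-value, a category and an alignment score, which the authors obtained with CleaveLand 3.0 and targetfinder. The p-values are not adjusted, and the sources used here give neither the thresholds nor the degradome depth nor the transcript release. Dates stood in 11 cells in place of the aligned stretch, so these pairs have no aligned stretch and no position of cleavage here.

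The small RNA library was told from the degradome library by its title, which is the prefix of the predicted miRNA names. Members were matched by exact name. A distinct site is a transcript and a nucleotide, counted once where several miRNAs share it. The position of cleavage was counted back from the last aligned nucleotide to the site, both included. Laccase names and places, homolog names and the hairpin came from the study's supplementary tables, used without their values. No table used here held transcript or protein sequences of these IDs, so none are shown. Intervals are at the 95% level: Poisson for counts, Clopper-Pearson for shares and conditional binomial for ratios. The Poisson and conditional binomial intervals were tested on simulated data, and the Clopper-Pearson intervals were not. The named genes were all members, the other copper-linked miRNAs, 3 neighbours on each side in the order of counts, the 10 sites with the most reads, the 5 highest ratios and every annotated laccase. Members and lists were chosen with earlier results of these data known. Alternatives covered the denominator, the set of miRNAs ranked, normalized reads, the authors' p, the category and the paralogs summed. Values were computed in Python (3.11.15) using SciPy (1.17.1), NumPy (2.4.6) and pandas (2.3.3), and drawn using matplotlib (3.10.9).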

Additional observations from a re-analysis of the deposited data

How the results depend on the processing

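Of the values under an alternative, 19 were labelled as the same as the reported one and 11 as moved. These labels are not a uniform measure of stability. The laccase pairs called by the authors' p fell from 3 to 2 at the threshold of 0.01 and were labelled the same. The share of site reads on the laccases went from 48.1% to 49.4% with normalized reads and was labelled as moved. Without miR156, which held most of the listed reads, the shares were 0.00829% for miR397, 0.000754% for miR398 and 0.0678% for miR408. Among the conserved families only, a list of 34 in place of 557, the ranks were 28 for miR397, 31 for miR398 and 19 for miR408. With at least 5 reads required, miR397 and miR408 kept ranks 54 and 29 and miR398 has no value. The rank of miR397 in site reads per miRNA read was 1 under normalized reads, the highest site only, the authors' p under 0.05, at least 5 reads, and conserved families only; without ppa003646m, which holds most of the laccase reads, it was 5. The share of laccase reads on the highest paralog was 83.6% with raw or normalized reads and 84.6% over the sites with the authors' p under 0.05. Without that paralog the next one, ppa003296m, held 76.8%. The laccase sites held 48.1% of the reads over all pairs, 52.9% over distinct sites, 49.4% of normalized reads, and 13.1% without ppa003646m; these settings, the removal of ppa003646m from the ratio and its restriction to conserved families were chosen after seeing the data. No paired analysis was possible because each library has 1 sample. The 3 reads of miR398 limit any statement on it to the interval given.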
